A study of Mus musculus with 7 samples.

Results

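The transcripts described here are those of 7 genes of the interleukin-18 and interleukin-1 axis: the cytokines Il18, Il1a and Il1b, the secreted inhibitors Il18bp and Il1rn, and the interleukin-18 receptor chains Il18r1 and Il18rap. They were chosen by gene name, and all 7 were found among the 22987 genes of the expression table. The RNA came from material scraped from the lumen side of the duodenum, labelled as epithelium, in C57BL/6 mice aged 6 weeks. One group of 4 libraries came from mice of genotype Nlrc4-T337S, named as homozygous in the series title, and the other group of 3 libraries came from wild type mice. The labels name no treatment, cage, litter or sequencing batch, and they do not say outright that each library was one mouse, so the tests measure the spread between these libraries. The comparison asks how the level of each transcript differs between the genotypes.

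Interleukin-18 and interleukin-1 beta are made as inactive precursors and cut to their active forms by caspase-1, the protease that inflammasomes such as the one built on NLRC4 switch on. In the gut, epithelial cells hold interleukin-18 precursor at all times, whereas interleukin-1 beta is mainly a product of myeloid cells. Each cytokine has a soluble brake: interleukin-18 binding protein captures interleukin-18, and the interleukin-1 receptor antagonist occupies the receptor that both interleukin-1 alpha and beta use. Messenger RNA levels do not measure how much precursor is cut or released. T337S is an activating change in NLRC4 that is known from human autoinflammatory disease.

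The stretches before the transcription starts of Il18bp and Il18 are shown because their mean levels differed between genotypes in opposite directions. Of these, Il18bp passed the test given below and Il18 did not. Both are the 250 bases upstream of the RefSeq start (GRCm38.p6 table), written 5′ to 3′ on the strand of the gene, and each was placed in mm9 by a single exact match. The Il18bp stretch lies at chr7:109166747-109166996 on the minus strand and ends 77 bases before the GENCODE start of the gene in mm9. The Il18 stretch lies at chr9:50362555-50362804 on the plus strand, 20573 bases before the shorter gene model that the mm9 annotation gives. Capitals mark a match to the C/EBP motif.
Il18bp: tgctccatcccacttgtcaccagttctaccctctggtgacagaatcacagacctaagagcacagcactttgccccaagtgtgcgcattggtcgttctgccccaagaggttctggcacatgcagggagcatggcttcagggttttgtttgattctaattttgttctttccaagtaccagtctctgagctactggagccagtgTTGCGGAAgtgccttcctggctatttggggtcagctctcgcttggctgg
Il18: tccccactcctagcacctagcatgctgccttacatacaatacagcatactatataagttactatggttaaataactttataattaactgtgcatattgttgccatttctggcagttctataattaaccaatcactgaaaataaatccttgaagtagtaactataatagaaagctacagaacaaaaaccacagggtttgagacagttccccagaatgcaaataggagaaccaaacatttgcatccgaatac

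Both strands were searched for 4 motifs: TTCNNNGAA (GAS), GAAA, 2 bases of any kind and GAAA again (the element of interferon regulatory factors), TTGCNNAA (C/EBP), and GGGA, 1 base of any kind and TTTCC (NF-kB). The Il18bp stretch held 1 match, to C/EBP, from 49 to 42 bases before the start, overlapping no other match; 9.56% of the 32851 mouse promoter stretches of this length held that motif. The Il18 stretch held none of the 4. Over the 11 RefSeq stretches of the 7 genes, the only other matches were to GAS, 2 in the third start of Il18r1, a motif present in 7.02% of all stretches. The element of interferon regulatory factors, at 2.98% of all stretches, and the NF-kB motif, at 0.356%, matched in none of them. A match is only a run of letters, and an absent match says only that these letters are not in this stretch.

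Levels are given in RPKM, reads scaled to the length of the gene and to the mapped reads of the library, so they can be set beside each other across genes. Libraries held 45032119 to 95732587 quality-passing reads, 84.2% to 97.1% of them mapped, which makes 1 read per kilobase worth 0.0124 to 0.0251 RPKM. Nlrc4 itself stood at 18.3 to 20.6 RPKM in Nlrc4-T337S against 18.7 to 20.4 RPKM in wild type. T337S swaps one residue of the protein, so these levels do not check the genotype. All 8 epithelial markers were tested and 0 called, and their summed level, most of it from Krt8 and Krt20, was 5056 to 6989 RPKM in Nlrc4-T337S against 6182 to 6671 RPKM in wild type. The 2 epithelial markers with the smallest p were Krt19, a keratin, at 206 ± 56.7 RPKM against 313 ± 30.3 in wild type (limma adjusted p = 0.141), and Krt18, another keratin, at 74.9 ± 9.50 against 95.9 ± 10.1 (limma adjusted p = 0.173; SD, n = 4 and 3). The scrapings also held markers of immune and stromal cells.

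The levels of the 7 transcripts spanned a wide range in both genotypes. In wild type the mean levels ran in the order Il18, Il18bp, Il1b, Il1rn, Il18r1, Il1a and Il18rap, from 102 RPKM down to 0.167 RPKM. Il18 lay above Il18bp, and Il18bp above the 5 others, in all 7 libraries, and no ranges overlapped at these steps. Below that, the ranges of neighbours overlapped at every step. Il1b was above Il1rn in 5 of 7 libraries and Il1a above Il18rap in 5 of 7, so the order of those pairs did not hold in every library. By mean level over all libraries Il18 ranked 771 and Il18bp 3006 of the 22987 genes, and the other members ranked from 10180 to 13411.

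**Figure D1:**
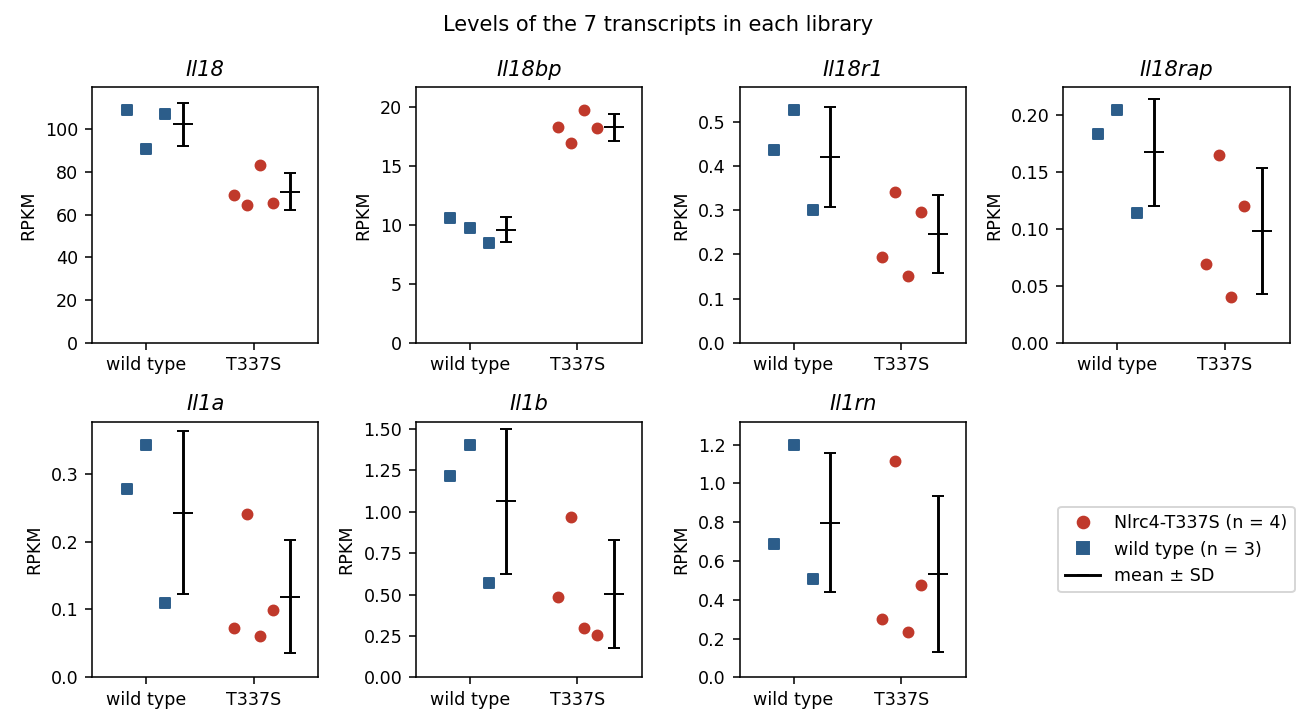
Level of each transcript in RPKM (vertical axis, from 0, one scale per panel) in the 3 wild type libraries (blue squares) and the 4 Nlrc4-T337S libraries (red circles), with the group mean and SD in black. The groups do not overlap for Il18 and Il18bp, and they overlap for the other 5.

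Il18bp rose and was the member called different between genotypes. Il18bp (chromosome 7, 109163593 to 109166669, mm9, minus strand), which encodes the soluble protein that binds and neutralises interleukin-18, was at 18.3, 16.9, 19.7 and 18.2 RPKM in Nlrc4-T337S replicates 1 to 4. In wild type replicates 1 to 3 it was at 10.6, 9.71 and 8.47 RPKM. All 4 Nlrc4-T337S libraries lay above every wild type library, and the spread within each genotype was small beside the distance between them. The means were 18.3 ± 1.14 RPKM (SD, n = 4) and 9.58 ± 1.05 RPKM (SD, n = 3), a 1.91-fold higher level in Nlrc4-T337S. On the log2(RPKM + 0.5) scale the difference was 0.90 (SE 0.10, 95% interval 0.67 to 1.14; limma adjusted p = 0.00931 by Benjamini-Hochberg over 10987 tested genes).

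Of the 4 members with a mean of at least 0.5 RPKM, which was needed to enter the test, limma called 1 higher and 0 lower; of all tested genes 0.892% were called, 0.300% higher and 0.592% lower. At an unadjusted limma p under 0.05 there was 1 member higher and 2 lower, and 22.2% of all tested genes passed that level, 1.86% higher and 20.4% lower. The rise of Il18bp lost its call without wild type replicate 2 (log2 difference 0.91, limma adjusted p = 0.0668) and without Nlrc4-T337S replicates 1 and 3 together (0.85, limma adjusted p = 0.0828), while the difference itself moved little. Over all tested genes, 9 were called higher and 5 lower in the first setting, in place of 33 and 65. In the second, 1 was called higher and 1 lower. All tested genes had a median log2 difference of -0.15, and relative to that median Il18bp differed by 1.05. When the libraries were split by the order in which the submitters list them, the log2 difference of Il18bp was 0.77 among the first 4, with 2 per genotype, and 1.12 among the last 3, with 1 wild type library. The summed level of 14 markers of T cells, intraepithelial lymphocytes and natural killer cells also lay higher, at 437 to 569 RPKM in Nlrc4-T337S against 352 to 410 RPKM in wild type, but most of that sum came from the granzyme genes Gzma and Gzmb. Without them, a choice made after the values were seen, the sum of the other 12 was 123 to 162 against 110 to 136 RPKM, with overlap. The part of these cells in the level of Il18bp was not tested. The nearest neighbour of Il18bp, Numa1, which lies 120 bases away, was at 7.97 ± 1.93 RPKM in Nlrc4-T337S against 8.03 ± 0.503 in wild type (SD, n = 4 and 3; limma adjusted p = 0.915).

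Il18, the cytokine gene, had lower values throughout Nlrc4-T337S, without overlap, but did not pass the test. Il18 (chromosome 9, 50383378 to 50389942, mm9, plus strand) was at 69.5, 64.5, 83.6 and 65.7 RPKM in Nlrc4-T337S replicates 1 to 4. It was at 109, 90.9 and 107 RPKM in wild type replicates 1 to 3. Nlrc4-T337S replicate 3 was the highest of its genotype and came closest to wild type replicate 2, the lowest of its own. The level in Nlrc4-T337S averaged 0.692 times that in wild type, with a log2 difference of -0.53 (SE 0.12, 95% interval -0.81 to -0.25; limma adjusted p = 0.0876). The groups did not overlap in 2 of the 7 members, both of them among the 4 tested. They did not overlap in 19.3% of all tested genes, with 17.3% of tested genes lower and 1.97% higher in Nlrc4-T337S, so a separation like that of Il18 was common. Relative to the median of all genes the difference was -0.39, and after median-of-ratios scaling it was -0.35 with a 95% interval of -0.71 to 0.00256. Il18 passed without Nlrc4-T337S replicate 2 (log2 difference -0.49, limma adjusted p = 0.0453), a setting in which 1272 genes were called lower in place of 65, and with array weights (-0.56, limma adjusted p = 0.0406). Within the first 4 and the last 3 libraries of the sample order the log2 difference was -0.57 and -0.53. Markers of other cells moved as well. The sum over 8 Paneth cell markers was 157 to 748 RPKM in Nlrc4-T337S against 1176 to 1731 RPKM in wild type. Of the 8, Defa3, Mmp7 and Pla2g2a were called lower (limma adjusted p = 0.0493, 0.0392 and 0.0312), beside 0.592% of all tested genes. All 8 were lower at an unadjusted limma p under 0.05, a level that 20.4% of all tested genes passed in that direction. Pla2g2a averaged 0.212 RPKM in Nlrc4-T337S, under the 0.5 RPKM of the filter. It entered the test through its wild type mean of 1.47 RPKM. The sum over 10 markers of absorptive enterocytes was 36432 to 54460 RPKM in Nlrc4-T337S against 39246 to 50981 RPKM in wild type, with 0 called. The epithelial keratins Krt18 and Krt19, described above, also had lower means, while the keratins Krt8 and Krt20 had higher means. Of the 8 epithelial markers, 4 had negative log2 differences. The part of these cells in the level of Il18 was not tested.

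The ratio of Il18bp to Il18 separated the genotypes, with all Nlrc4-T337S values above those of wild type. The ratio of their RPKM values was 0.264, 0.263, 0.236 and 0.277 in Nlrc4-T337S replicates 1 to 4. In wild type replicates 1 to 3 it was 0.0970, 0.107 and 0.0790. The lowest Nlrc4-T337S ratio was 2.21 times the highest wild type ratio. Put the other way, there were 3.86 ± 0.267 units of Il18 RPKM for each unit of Il18bp in Nlrc4-T337S (SD, n = 4) against 10.8 ± 1.70 in wild type (SD, n = 3). The mean ratio was 0.260 ± 0.0173 and 0.0943 ± 0.0141, a 2.76-fold difference. Both values of a ratio come from the same library, so scaling of libraries cancels out. The ratio follows from the levels of the 2 genes above and was given no test of its own. RPKM is scaled for gene length, and the sources used here do not give the gene models behind the lengths, so the ratio compares libraries more safely than it states how many Il18 transcripts there are for each Il18bp transcript.

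**Figure D2:**
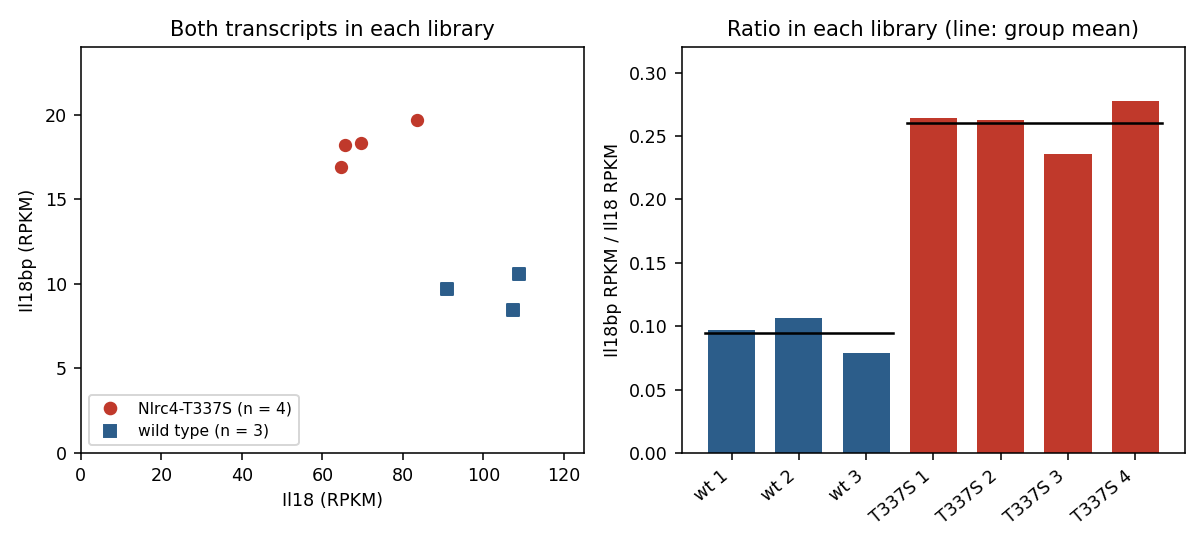
Left, Il18bp against Il18, both in RPKM, 1 point per library; right, the ratio of Il18bp to Il18 RPKM in each library, with the group mean as a line (wt, wild type; T337S, Nlrc4-T337S). The Nlrc4-T337S ratios of 0.236 to 0.277 lie above the wild type ratios of 0.0790 to 0.107, and the genotypes separate on both axes of the left panel.

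Il1b, the inflammasome-cut cytokine of myeloid cells, was scarce and varied more within genotypes. Il1b (chromosome 2, 129190306 to 129196875, mm9, minus strand) was at 0.488, 0.971, 0.299 and 0.254 RPKM in Nlrc4-T337S replicates 1 to 4. It was at 1.22, 1.40 and 0.571 RPKM in wild type replicates 1 to 3. Nlrc4-T337S replicate 2 lay within the wild type range and wild type replicate 3 within that of Nlrc4-T337S, so the groups overlapped. The means were 0.503 ± 0.328 (SD, n = 4) and 1.06 ± 0.437 RPKM (SD, n = 3), with a log2 difference of -0.65 (SE 0.27, 95% interval -1.27 to -0.03; limma adjusted p = 0.208). Without Nlrc4-T337S replicate 2 the log2 difference was -0.85 and passed (limma adjusted p = 0.0438). In that setting 1272 of all tested genes were called lower in place of 65. The 25 bases of Il1b exon that an antisense transcript overlaps cannot be assigned to a strand, since the library kit does not mark strand. Relative to Il18, which was 66.5 to 279.6 times as high in Nlrc4-T337S against 64.8 to 188 times as high in wild type on the RPKM scale, Il1b was a minor transcript in every library.

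Il1rn, the gene of the interleukin-1 receptor antagonist, followed no genotype pattern beyond its spread. Il1rn (chromosome 2, 24192373 to 24207014, mm9, plus strand) was at 0.299, 1.11, 0.236 and 0.478 RPKM in Nlrc4-T337S replicates 1 to 4 and at 0.686, 1.20 and 0.508 RPKM in wild type replicates 1 to 3. Replicate 2 of each genotype was the highest of its group. The log2 difference was -0.37 (SE 0.28, 95% interval -1.01 to 0.28; limma adjusted p = 0.463), and the interval held both a fall and a rise. The ratio of Il1rn to Il1b was 0.612, 1.15, 0.788 and 1.88 in Nlrc4-T337S, against 0.564, 0.853 and 0.890 in wild type. The antagonist-to-cytokine ratio of interleukin-1 thus overlapped between genotypes, whereas that of interleukin-18 did not; the 2 ratios were not tested against each other.

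Il1a, which encodes a cytokine active without inflammasome cutting, fell under the level needed for the test. Il1a (chromosome 2, 129125346 to 129135708, mm9, minus strand) was at 0.0734, 0.241, 0.0608 and 0.0997 RPKM in Nlrc4-T337S replicates 1 to 4 and at 0.277, 0.342 and 0.109 RPKM in wild type. The lowest of these values equals 4.68 mapped reads per kilobase, and the highest 23.7. The groups overlapped through Nlrc4-T337S replicate 2 and wild type replicate 3. With no filter on low values the log2 difference was -0.26 (limma adjusted p = 0.369). Its exons overlap those of the antisense gene Gm14023 over 222 bases, and without strand marking those reads cannot be told apart.

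The interleukin-18 receptor genes, which lie next to each other on chromosome 1 and are known from T cells and natural killer cells, were also under that level. Il18r1 (40522397 to 40557699, mm9, plus strand), the chain that binds interleukin-18, was at 0.195, 0.341, 0.150 and 0.297 RPKM in Nlrc4-T337S replicates 1 to 4 and at 0.436, 0.526 and 0.301 RPKM in wild type. Il18rap (40572207 to 40608550, mm9, plus strand), the signalling partner chain, was at 0.0688, 0.165, 0.0399 and 0.120 RPKM in Nlrc4-T337S and at 0.183, 0.204 and 0.114 RPKM in wild type. Both pairs of groups overlapped. At the lowest value Il18rap rested on 3.07 mapped reads per kilobase. With no filter the log2 differences were -0.30 for Il18r1 (limma adjusted p = 0.250) and -0.16 for Il18rap (limma adjusted p = 0.348). For values this low the log2(RPKM + 0.5) scale understates a change: with a pseudocount of 0.1 the differences were -0.60 for Il18r1, -0.46 for Il18rap and -0.65 for Il1a. The same holds for the tested Il1b and Il1rn. With that pseudocount Il1b was at -1.01 in place of -0.65 (limma adjusted p = 0.213). Il1rn was at -0.62 in place of -0.37 (limma adjusted p = 0.433). Il18r1 exceeded Il18rap in every library, by 2.07 to 3.77 times in Nlrc4-T337S and 2.38 to 2.63 times in wild type.

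The 5 scarce members ranked the libraries in much the same way, and so did the summed markers of myeloid cells, of B and plasma cells, and of fibroblasts and endothelium. All 5 were highest in wild type replicate 2, and within Nlrc4-T337S all 5 were highest in replicate 2, while 4 of the 5 were lowest in replicate 3. Within wild type all 5 were lowest in replicate 3. The summed level of 14 markers of macrophages, dendritic cells and monocytes was 40.1, 106, 29.4 and 59.5 RPKM in Nlrc4-T337S replicates 1 to 4. It was 115, 139 and 80.7 RPKM in wild type replicates 1 to 3. None of the 14 was at 0 in all libraries, 1 averaged under 0.1 RPKM, and all 12 tested had negative log2 differences, as did 78.0% of all tested genes; limma called 0 of the 12, and 9 were lower at an unadjusted p under 0.05, a level that 20.4% of all tested genes passed in that direction. The 8 markers of B and plasma cells summed to 97.5, 262, 55.4 and 133 RPKM in Nlrc4-T337S and to 413, 653 and 249 RPKM in wild type, most of it Jchain, the joining chain of antibodies. Limma called 0 of 7 tested. All 7 had negative log2 differences, beside 78.0% of all tested genes, and 4 were lower at an unadjusted p under 0.05, beside 20.4%. The 9 markers of fibroblasts and endothelium summed to 1.55, 4.35, 1.16 and 2.09 RPKM in Nlrc4-T337S and to 13.0, 15.7 and 6.03 RPKM in wild type. Of 4 of these tested, Dcn and Sparc, genes of the extracellular matrix, were called lower (limma adjusted p = 0.0207 and 0.0249), beside 0.592% of all tested genes. All 4 were lower at an unadjusted limma p under 0.05, beside 20.4% of all tested genes. Dcn, Sparc and Col3a1 averaged 0.309, 0.320 and 0.461 RPKM in Nlrc4-T337S. These means lay under the 0.5 RPKM of the filter, so these genes entered the test through their wild type levels. The same held for Mrc1 and Cx3cr1 of the myeloid list and Tnfrsf17 of the B and plasma cell list. The myeloid, B and plasma cell, and fibroblast and endothelial sums were each highest in replicate 2 and lowest in replicate 3 within each genotype. Within Nlrc4-T337S that order was not particular to them. The epithelial, absorptive enterocyte and Paneth cell sums were also highest in replicate 2 and lowest in replicate 3 there. In wild type those sums were highest in replicate 1. The mast cell and basophil sum was highest in Nlrc4-T337S replicate 4 and in wild type replicate 3. In bulk tissue, fewer cells of a type and less RNA per cell cannot be told apart. The part of any of these cell types in the levels of the 5 scarce members was not tested.

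Markers of T cells, intraepithelial lymphocytes and natural killer cells ran otherwise. Their summed level over 14 markers was 458, 518, 437 and 569 RPKM in Nlrc4-T337S replicates 1 to 4 and 352, 410 and 368 RPKM in wild type. Every Nlrc4-T337S library lay above the wild type libraries in this sum, which held with the 2 granzyme genes included and not without them, while Il18r1 and Il18rap had lower mean levels in Nlrc4-T337S. Of 12 tested markers, Gzmb, a granule protease, was called higher and 0 lower, beside 0.300% and 0.592% of all tested genes. At an unadjusted limma p under 0.05 there were 3 higher and 0 lower, beside 1.86% and 20.4% of all tested genes. Of the markers without a call, Cd3e, Cd4 and Prf1 had lower means in Nlrc4-T337S. The 7 neutrophil markers summed to 1.41 to 3.26 RPKM in Nlrc4-T337S and 2.43 to 4.02 RPKM in wild type. Cxcr2, a chemokine receptor, was at 1.16 and 1.03 RPKM, Retnlg at 0.730 and 1.39, and Csf3r at 0.217 and 0.340, with the Nlrc4-T337S mean first. S100a8 was at 0 in all Nlrc4-T337S libraries, and S100a8, S100a9, Mpo and Elane averaged under 0.12 RPKM in both genotypes.

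**Figure D3:**
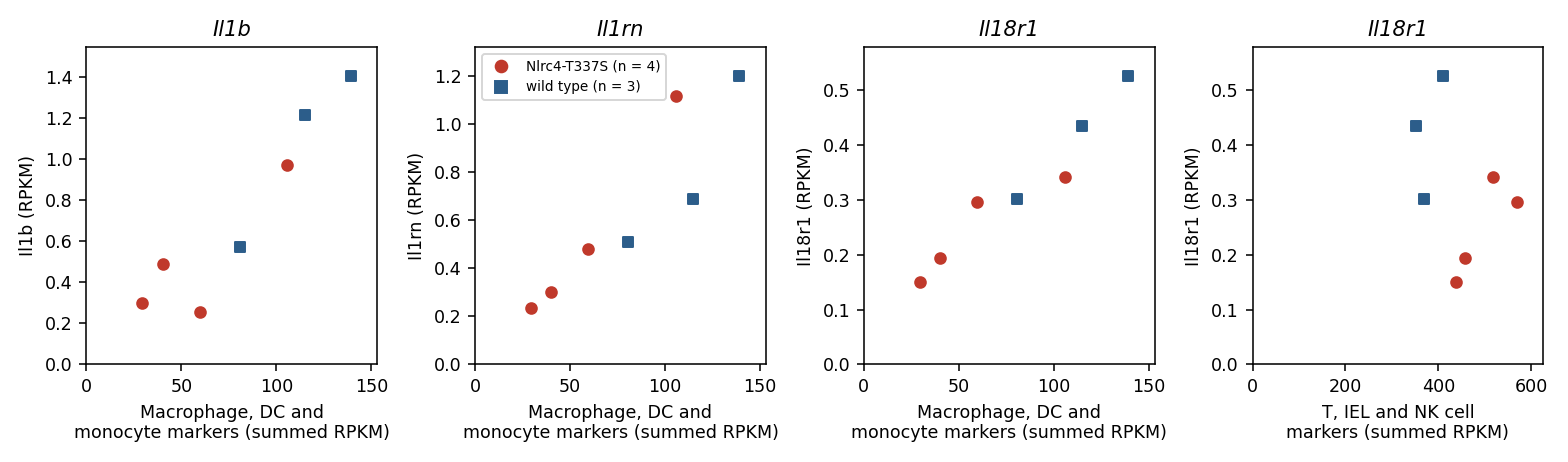
Il1b, Il1rn and Il18r1 in RPKM against the summed RPKM of 14 macrophage, dendritic cell (DC) and monocyte markers, and, at the right, Il18r1 against the summed RPKM of 14 markers of T cells, intraepithelial lymphocytes (IEL) and natural killer (NK) cells; 1 point per library. Libraries with the lowest myeloid sums, 29.4 and 40.1 RPKM, also had the lowest Il1rn and Il18r1. The lowest Il1b, 0.254 RPKM, was instead in Nlrc4-T337S replicate 4, with a myeloid sum of 59.5 RPKM. The T cell sum does not order Il18r1.

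Among the other genes of the pathway, limma called none in either direction in any of 5 lists. Counts at an unadjusted limma p under 0.05 are given beside the 1.86% of all tested genes that were higher and the 20.4% that were lower at that level. In the IL-1 family outside the members 0 of 4 tested genes passed, with 0 higher and 2 lower at an unadjusted p under 0.05. Sigirr, an inhibitory receptor of the family, was at 7.18 ± 0.674 RPKM in Nlrc4-T337S against 8.96 ± 0.450 in wild type (limma adjusted p = 0.154). Il1r2, a decoy receptor for interleukin-1, was at 0.784 ± 0.542 and 1.38 ± 0.113 (limma adjusted p = 0.218), the Nlrc4-T337S value given first here and in the values that follow. Il33, an alarmin of the family, was its most abundant ligand after Il18 at 26.1 ± 4.73 and 27.8 ± 5.83 RPKM. The family ligands listed as Il1f5 and Il1f10 were at 0 in every library.

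The machinery that cuts and releases these cytokines was abundant and had 0 of 9 tested genes called, with 0 higher and 1 lower at an unadjusted limma p under 0.05. Its smallest p-values were those of Ninj1, which ruptures the membrane of dying cells, at 4.51 ± 0.914 and 8.05 ± 3.57 RPKM (limma adjusted p = 0.165), and Pycard, the inflammasome adaptor, at 25.8 ± 12.4 and 35.8 ± 5.99 (limma adjusted p = 0.293). Casp1, which cuts both cytokine precursors, was at 65.5 ± 7.42 and 58.6 ± 11.1 RPKM. Gsdmd, the pore protein through which they leave the cell, was at 281 ± 15.6 and 300.4 ± 15.4 RPKM.

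In receptor signalling, 0 of 18 tested genes were called, with 0 higher and 3 lower at an unadjusted limma p under 0.05. The smallest p-values were those of Irak2, a kinase of the receptor complex, at 20.2 ± 0.755 and 24.4 ± 0.0953 RPKM (limma adjusted p = 0.138), and Myd88, the adaptor that all these receptors use, at 9.29 ± 0.965 and 11.5 ± 0.0295 (limma adjusted p = 0.156). The list had a median log2 difference of -0.17 beside -0.15 over all genes.

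In interferon-gamma signalling, the pathway of the cytokine that lymphocytes release in response to interleukin-18 and a known inducer of Il18bp, 0 of 9 tested genes were called, with 1 higher and 1 lower at an unadjusted limma p under 0.05. Cebpb, which encodes a C/EBP factor, had one of the smallest p-values, at 5.04 ± 0.697 and 7.15 ± 0.922 RPKM (limma adjusted p = 0.121). Ifng itself was under the level for the test at 0.149 ± 0.0415 and 0.0812 ± 0.0348 RPKM. The median log2 difference of the list was 0.08. In the list of the IL-12 family and partners of interleukin-18, 0 of 4 tested genes were called, with 1 higher and 0 lower at an unadjusted limma p under 0.05; Il15 was at 34.7 ± 3.59 and 29.3 ± 0.861 RPKM and Stat4 at 1.32 ± 0.193 and 1.25 ± 0.172 (limma adjusted p = 0.224 and 0.815). All SDs here are over n = 4 and n = 3 libraries.

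**Figure D4:**
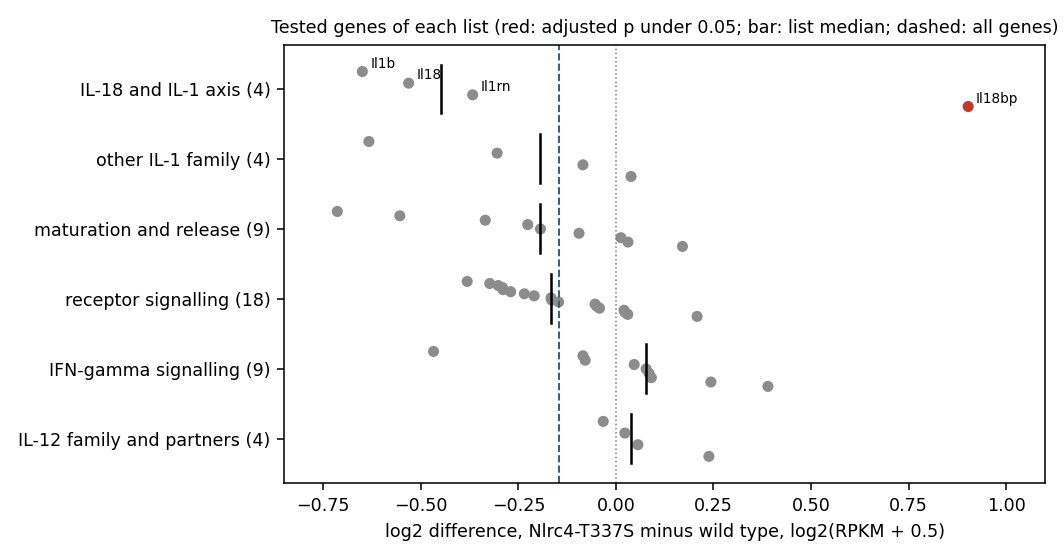
Log2 difference of each tested gene, Nlrc4-T337S minus wild type, on the log2(RPKM + 0.5) scale, for the members and 5 pathway lists (number tested in brackets); bars are list medians and the dashed line is the median of all 10987 tested genes, -0.15. Il18bp, at 0.90, is the one gene shown that passed.

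The transcripts most like Il18bp across the 7 libraries were sought among 9182 other genes with a mean of at least 1 RPKM. Genes with provisional names were left out: those of Gm, BC, AI or AA with a number, ending in Rik, or starting with a digit. The 5 with the highest Pearson correlation of log2 values were Igtp (r = 0.985), Eif1a (0.981), B2m (0.980), Irgm2 (0.975) and Gbp6 (0.975). Igtp, Irgm2 and Gbp6 are interferon-inducible GTPase genes, and B2m encodes the light chain of MHC class I. Igtp was at 99.8 ± 19.6 RPKM in Nlrc4-T337S against 26.5 ± 6.95 in wild type, Gbp6 at 8.29 ± 1.55 and 3.20 ± 0.658, and B2m at 3960 ± 132 and 2768 ± 118. For Il18 the 5 closest were Lsm12 (r = 0.984), Slc51a (0.978), Aifm2 (0.978), Tmem55a (0.971) and Slc44a3 (0.947). Slc51a, a chain of the basolateral bile acid exporter, was at 165 ± 20.3 RPKM in Nlrc4-T337S against 211 ± 11.3 in wild type. Each r rests on the same 7 libraries of 2 genotypes, so a gene that differs between genotypes ranks high on that alone, and these are descriptions without a test.

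**Figure D5:**
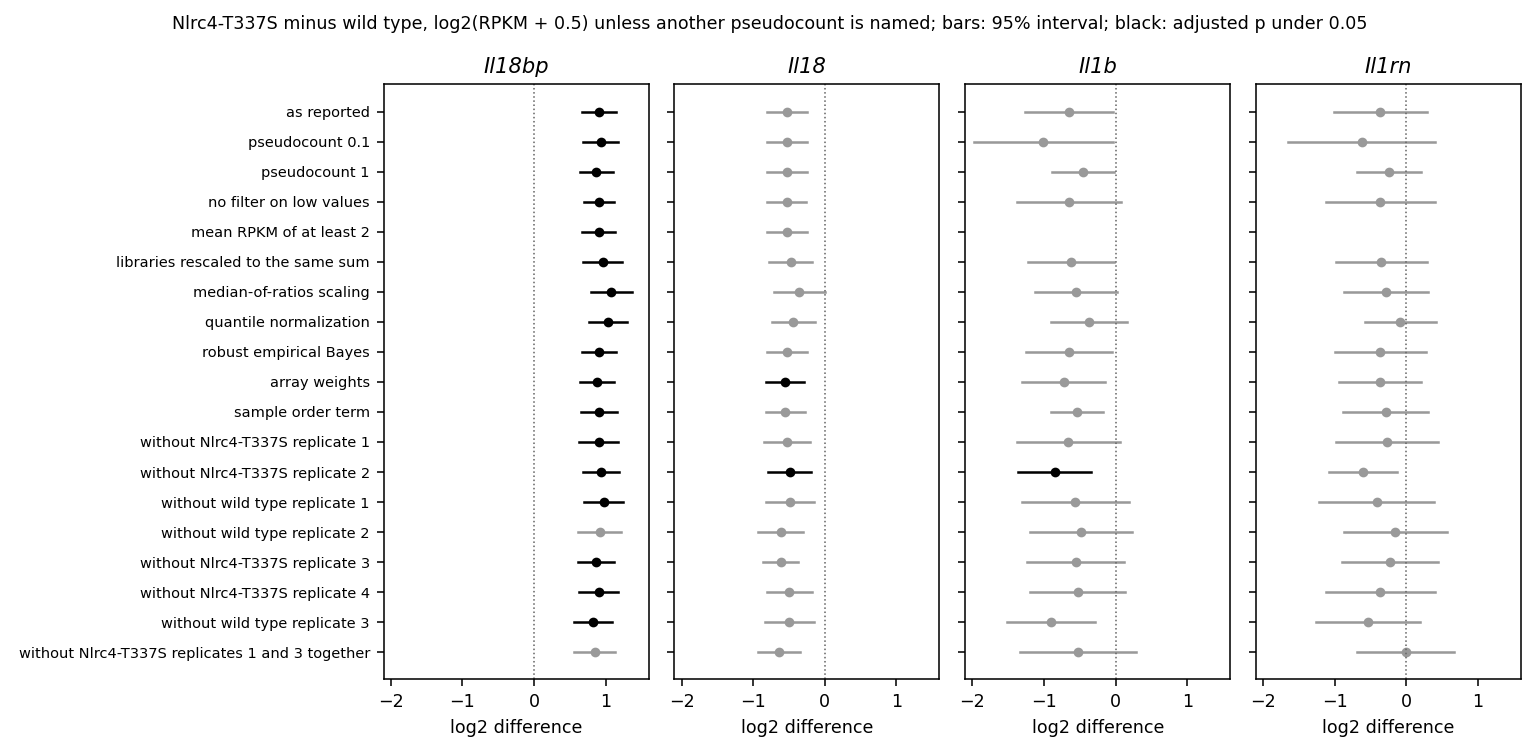
Log2 difference with its 95% interval for the 4 tested members under each alternative (rows), with black where the limma adjusted p was under 0.05 and grey elsewhere; Il1b and Il1rn have no value under the filter of 2 RPKM. Il18bp stays between 0.82 and 1.07, and Il18 between -0.64 and -0.35.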

How the data were processed

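RNA from 7 duodenal scrapings was sequenced after preparation with the Illumina TruSeq kit, per the labels' protocols. Per the file headers, the authors used TopHat 2.1.0 with mm9 for mapping and Partek 6.16.0606 for RPKM; the sources used here give neither the gene models nor the rule for multiply mapped reads. The count of quality-passing reads and the fraction mapped were deposited per library. Values as small as 2.8e-45 RPKM occur, so whole reads were not recovered and no count model was used.

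Libraries were grouped by their own genotype label and numbered in accession order. Values were tested as log2(RPKM + 0.5) with limma 3.58.1 in R 4.3.3 (mean-variance trend, no covariate, two-sided, Benjamini-Hochberg at 0.05) over the 10987 genes with a mean of at least 0.5 RPKM, and the steps were tested on simulated data. The members and gene lists were chosen with earlier results of these data known. Members are always named; each pathway list gives its called genes or the 2 with the smallest p, except that 1 gene of the interferon-gamma list is not reported here, and marker lists give their sums and called genes. Alternatives were other pseudocounts, filters, scalings, variance estimates and weights, a threshold of 0.10, a sample order term, and leaving out libraries. Figures were drawn with matplotlib 3.10.9.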

Additional observations from a re-analysis of the deposited data

How the results depend on the processing

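The count of members called higher was 1, and 0 without Nlrc4-T337S replicates 1 and 3 together; leaving out each library in turn gave 0 to 1, with the 0 from leaving out wild type replicate 2. The count called lower was 0, and 1 (Il18) with array weights or an adjusted p of 0.10. Leaving out each library in turn gave 0 to 2, the 2 being Il18 and Il1b without Nlrc4-T337S replicate 2. These counts moved with those over all 10987 tested genes. Lower calls were 65 as reported, 287 with array weights, 250 at 0.10 and 1272 without Nlrc4-T337S replicate 2. Higher calls were 33 as reported, 9 without wild type replicate 2 and 1 without Nlrc4-T337S replicates 1 and 3 together. Over the 19 alternatives the limma adjusted p of Il18bp ran from 0.00442 to 0.0828, and that of Il18 from 0.0406 to 0.337. The mean log2 difference in the ratio of Il18bp to Il18 was 1.47, and 1.35 to 1.57 over 9 alternatives. No tested member changed direction under any alternative run, though Il1rn came down to -0.01 on the log2 scale. Leaving out libraries leaves fewer samples; other causes of lost or gained calls were not tested. No paired analysis was possible because the labels give no replicate numbers. By their lowest library, Il18rap, Il1a and Il18r1 had the fewest reads per kilobase, with values of 3.07 to 36.4. Read support also depends on length. At its lowest, Il1b had 15.58 reads per kilobase over 1907 exonic bases in the mm9 annotation. Il18r1 had 11.55 over 4779 bases.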

Other observations

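The receptor genes Il1r1 and Il1rl1 of the IL-1 family were chosen after their values were seen, and both were under the level for the test. Il1rl1, the receptor for interleukin-33 and a neighbour of Il18r1 at 137 bases, was at 0.0554 to 0.160 RPKM in Nlrc4-T337S and 0.297 to 0.911 in wild type. Il1r1, the signalling receptor for interleukin-1, was at 0.0181 to 0.130 and 0.185 to 0.597 RPKM. The groups did not overlap in either, nor in Sigirr of the same family. Il1rl1 and Il1r1 were not among the tested genes, of which 19.3% had groups without overlap (17.3% lower in Nlrc4-T337S). With no filter on low values the log2 differences were -0.88 and -0.64 (limma adjusted p = 0.120 and 0.145). The summed level of 9 fibroblast and endothelial markers was 1.16 to 4.35 RPKM in Nlrc4-T337S and 6.03 to 15.7 RPKM in wild type, and its part in these values was not tested.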
